A study of Mus musculus with 48 samples.

Results

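The measurement described here is how the colitis response differed between the colon epithelium and the whole colon wall. For each array probe, the change between interleukin-10 gene-deficient (Il10-/-) and C57 mice in laser-microdissected colon epithelium was compared with the change in intact colon, at 12 weeks of age. The probes were those whose sample signal was well above the array background on at least 3 of the arrays of 1 strain group in each tissue. That rule kept 13672 of 41174 probes (33.2%), which stood for 11168 of 27670 gene names. Of these, 11990 probes met the rule in all 4 groups, and 1682 met it through 1 strain group only in at least 1 tissue.

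The study set healthy mice against a mouse model of inflammatory bowel disease and asked how far whole-wall samples stand for the epithelium. All mice were males kept in conventional conditions on the AIN76A diet and inoculated with Enterococcus and gut flora, so the C57 controls carried the same bacterial challenge. The Il10-/- mice were of the strain B6.129P2-Il10tm1Cgn/J, which carries the deletion in every cell type on the C57BL/6J background. The controls came from a different colony, so the deletion and the source of the mice cannot be told apart. At 12 weeks there were 6 intact colon arrays from Il10-/- mice, 6 intact colon arrays from C57 mice, 6 epithelial arrays from Il10-/- mice and 5 from C57 mice. Each array held the RNA of 1 mouse, labelled with Cy3, and a reference RNA pooled from intestine, kidney, liver and fetus of Swiss mice, labelled with Cy5. A sixth epithelial C57 array, labelled as a repeat of replicate 1, was not used. Epithelial RNA was cut from sections by laser and amplified in 2 rounds, against 1 round for intact colon, and the tissues were scanned and read with different versions of the image software. The tissue and its RNA preparation therefore cannot be told apart, whereas each strain change was taken within a tissue.

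Interleukin-10 is a cytokine that restrains macrophages and T cells, and mice that lack it develop colitis when bacteria colonise the gut. The colon wall joins a single layer of epithelial cells (absorptive colonocytes, mucus-making goblet cells and a few hormone-making cells) to a lamina propria of immune cells and fibroblasts, a muscle coat and an enteric nervous system of neurons and glia. A change seen in intact colon sums over all of these cells, while a change in microdissected epithelium is drawn mostly from epithelial cells and the lymphocytes lying between them. The paper left out lamina propria where it could, but in a section shown from a non-inflamed mouse it was cut along with the epithelium. The authors also call carry-over of lamina propria immune cells possible. In either tissue, fewer cells of a type and less RNA per cell cannot be told apart.

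The arrays differed in sensitivity. The share of probes with Cy3 signal well above background had a median of 70.7% over the intact colon arrays, from 48.8% to 75.6%, and a median of 31.7% over the epithelial arrays, from 27.0% to 38.5%. The median Cy3 intensity was 141 in intact colon against 48.0 for the negative control spots, and 1267 in epithelium against 1198 for those spots. Many epithelial signals thus lay close to the level of spots that carry no gene, and this height over the negative controls is given below for some of the genes. Within intact colon, replicates 2 and 3 of both strains had 48.8% to 54.0% of probes well above background and negative control medians of 134 to 148. The other intact colon arrays had 64.6% to 75.6% and 47.4 to 48.2. The part of this in the tissue differences was not tested. The Il10 probe could not serve as a check of the labels, because its place relative to the deleted part is not given in the sources used here. In intact colon its log2 ratios were 1.19, 1.58 and 1.80 (lowest, median and highest) in arrays labelled Il10-/- and -0.019, 0.091 and 0.17 in arrays labelled C57, and in epithelium it was well above background on no array.

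The epithelial samples held their defining markers. All 15 markers of epithelium, Epcam, Krt8 and Vil1 among them, were measurable in both tissues. None was called between strains in either tissue or in the difference between the tissues, though with array weights Krt8 and Vil1 had a called difference below 0. That difference (epithelial minus intact colon strain change) lay below 0 for 14 of the 15 in the main fit, with a median of -0.49. Their mean log2 ratio was no higher in the cut epithelium, at -0.26 to 0.28 in Il10-/- and -0.31 to 0.85 in C57 mice, than in intact colon, at 0.46 to 0.71 and 0.05 to 0.60. In the C57 epithelium, 6 of 15 neuron and glia markers were well above background on no array, Chat, Ret, Snap25 and Stmn2 among them. So were 8 of 12 markers of neutrophils and 9 of 11 of mast cells. In C57 intact colon these counts were 1 of 15, 2 of 12 and 2 of 11. Some markers of epithelial cell types were likewise on no C57 epithelial array, 3 of 11 for crypt base and stem cells and 3 of 12 for enteroendocrine cells. Of all probes, only 33.8% were measurable in epithelium. Markers of muscle and fibroblasts were not absent from the cut epithelium: 10 of 12 smooth muscle genes and 15 of 16 fibroblast genes were measurable there in both strains.

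Across the 13672 probes the strain change ran mostly the same way in both tissues. Pearson's r between the epithelial and the intact colon change was 0.73, a description across genes, which are not independent replicates. The median size of the change was 0.22 log2 units in epithelium and 0.24 in intact colon, with median standard errors of 0.16 and 0.12. A change was called at more than 1.5-fold and a Benjamini-Hochberg adjusted p under 0.05 in limma over all probes. In epithelium 1218 of the measurable probes were called (622 higher and 596 lower in Il10-/- mice, or 730 and 940 with the slide as a block), 8.91% against 2.99% of all probes (1.53% higher and 1.46% lower). In intact colon 2322 were called (1093 higher and 1229 lower), 17% against 9.75% of all probes (4.41% higher and 5.34% lower). Both tissues called 849 of them, which is 69.7% of the epithelial calls and 36.6% of the intact colon calls, and 847 of the 849 ran the same way. Taking the brightest probe of each of the 11168 genes, 4.92% rose and 4.65% fell in epithelium, and 8.28% rose and 9.58% fell in intact colon, which are the shares against which the gene lists below are read. A gene that met the detection rule only through the strain in which it was high had to differ, so list counts are also given for genes that met it in all 4 groups.

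The difference between the 2 strain changes, hereafter the tissue difference, was the epithelial log2 change minus the intact colon log2 change. It was called for 463 of the 13672 probes, 3.39% against 3.66% of all 41174 probes, so the measurable probes were called at about the rate of the whole array. Among the 463 probes, which named 449 genes, the difference lay above 0 for 257 probes (251 genes, median 1.02) and below 0 for 206 probes (199 genes, median -0.94). The background was 1.95% of all probes above 0 and 1.71% below 0, and the measurable probes gave 1.88% and 1.51%. The measured tissue difference exceeded 4-fold for 14 genes, 7 in each direction. Of the 463 probes, 324 met the detection rule in all 4 groups, 2.7% of the 11990 probes that did so. For 41 of the 463, 1 strain group of the epithelium had no array well above background, so the epithelial change is a lower bound: in 8 of them a larger epithelial change would widen the difference, and in 33 (12 above 0 and 21 below 0) it would narrow it, so the measured difference of those 33 is not settled. With the slide, which held arrays of both strains, as a block, 810 probes were called, 426 above 0 and 384 below 0.

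**Figure D1:**
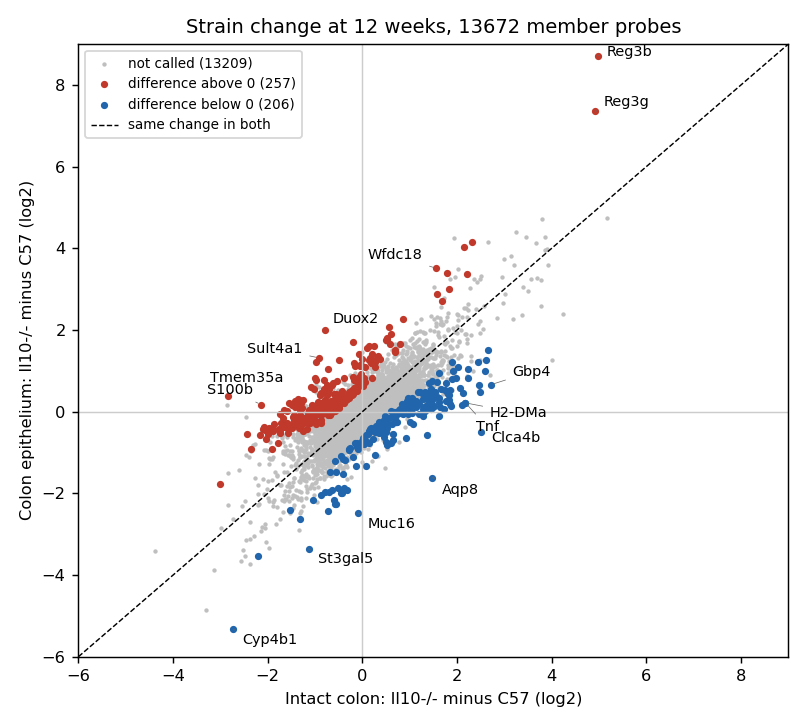
Each point is 1 of the 13672 probes, placed by its Il10-/- minus C57 log2 change in intact colon (x axis) and in epithelium (y axis). Red points are the 257 probes with a called difference above 0, blue points the 206 below 0, and grey points were not called. Most points follow the dashed line of equal change, and Reg3b and Reg3g stand alone at the top right with rises in both tissues, the epithelial one of Reg3b being a lower bound.

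A called difference did not have 1 form. The most common was a change called in intact colon alone: 144 probes fell in intact colon with no call in epithelium, and 112 rose in intact colon with no call in epithelium. A change called in epithelium alone made up 41 probes that rose and 34 that fell. Where both tissues were called in the same direction, 16 probes rose more and 12 fell more in epithelium, and 16 rose more and 5 fell more in intact colon. For Sult4a1 and Ckb, 2 probes were called in opposite directions (6 probes with the slide as a block and 5 without replicate 1 of the C57 epithelium), and in neither tissue on its own were 49 probes above 0 and 32 below 0 called.

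These forms differed in epithelial signal. Over all measurable probes the epithelial Cy3 signal had a median of 1.58 log2 units over the negative controls. The median was 0.56 for the 112 probes that rose in intact colon alone and 0.69 for the 144 that fell there alone. It was 1.92 for the 41 probes that rose in epithelium alone and 2.64 for the 34 that fell there alone. In intact colon the same 4 sets had medians of 3.08, 2.73, 3.48 and 4.86. The part of this low epithelial signal in the differences was not tested. When probes were required to reach 2 times the negative control level in all 4 groups, an alternative chosen after seeing the data, 178 of 8114 probes were called, 100 above 0 and 78 below 0.

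Reg3b had the largest measured tissue difference above 0, and Reg3g was among the next. Both encode secreted lectins of the regenerating islet-derived family, antibacterial proteins that epithelial cells release against bacteria in the lumen. The 2 genes lie close together on chromosome 6, and the 250 bases before each start, from RefSeq on build GRCm38.p6, are shown because this pair had the largest measured rises in epithelium. Capitals mark every match, on either strand, to TTCNNNGAA (the interferon gamma-activated site), GAAA and GAAA with any 2 bases between them, or the reverse, TTTC and TTTC with any 2 bases between them (the core of the interferon-stimulated response element), CCAAT or ATTGG, and TATAAA or TTTATA. No 2 matches overlapped. The Reg3b window is chr6:78370635-78370884 on the plus strand and the Reg3g window is chr6:78468875-78469124 on the minus strand.
Reg3b: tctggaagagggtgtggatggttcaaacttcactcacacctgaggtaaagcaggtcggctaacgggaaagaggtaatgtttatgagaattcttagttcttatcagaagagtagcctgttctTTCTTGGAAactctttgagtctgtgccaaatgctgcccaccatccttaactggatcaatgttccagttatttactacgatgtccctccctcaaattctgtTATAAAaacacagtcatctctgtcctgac
Reg3g: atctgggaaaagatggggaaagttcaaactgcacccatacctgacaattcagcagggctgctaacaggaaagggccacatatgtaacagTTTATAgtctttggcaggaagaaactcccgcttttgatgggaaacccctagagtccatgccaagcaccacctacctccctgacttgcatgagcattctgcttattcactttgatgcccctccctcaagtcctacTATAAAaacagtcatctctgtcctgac
Both windows hold a TATAAA match near their end, 29 bases before the start in Reg3b and 27 in Reg3g, which 12.4% of the 32851 mouse promoters hold on either strand. TTCNNNGAA occurred once in Reg3b, 129 bases before the start, and is in 7.02% of promoters. These matches describe the letters and do not show that a factor binds.

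In epithelium the Reg3b log2 ratios were -1.25, -0.77 and -0.28 (lowest, median and highest) in the 6 Il10-/- mice and -11.10, -9.77, -9.38, -8.92 and -8.13 in the 5 C57 mice. In intact colon they were -0.65, 1.95 and 2.77 in Il10-/- mice and -5.68, -3.03 and -1.89 in C57 mice. Neither pair of groups overlapped. None of the 5 C57 epithelial arrays had Reg3b well above background, so the epithelial rise is a bound, at least 202-fold, against a 31.4-fold rise in intact colon (adjusted p = 0.000124). The tissue difference computed from the measured values was 3.74 (SE 0.83, adjusted p = 0.00908), and against the bound it was at least 2.69, below the measured values of Tmem35a and Duox2. It stayed called on leaving out any 1 array but was not called when the 47 arrays of both ages were fitted together (adjusted p = 0.231).

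Reg3g had epithelial ratios of -1.03, -0.64 and -0.35 in Il10-/- mice and -9.15, -8.13, -7.86, -7.77 and -7.18 in C57 mice, 1 of which was well above background. Its intact colon ratios were -1.03, 1.27 and 2.11 and -5.16, -3.66 and -2.79 in the same order of strains. The groups were again fully apart in both tissues, with a tissue difference of 2.44 (SE 0.62, adjusted p = 0.0237), which was 2.15 and not called without replicate 5 of the C57 epithelium, nor called when the 47 arrays were fitted together (adjusted p = 0.362). For both genes the lowest Il10-/- value of intact colon came from replicate 2, which lay far below the other 5.

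The rest of the epithelial defence list went both ways. Of its 26 measurable genes, 12 rose in epithelium and 16 in intact colon, and of the 14 that met the detection rule in all 4 groups, 3 and 7. The tissue difference was called for 5, with Reg3b, Duox2 and Reg3g above 0 and Ltf and Pigr below 0. The median over the list was -0.24, against 0.03 over all 11168 measurable genes, of which 2.02% were called above 0 and 1.52% below 0. Duox2, the dual oxidase that releases hydrogen peroxide at the apical membrane, had epithelial ratios of 2.16, 2.68 and 3.41 in Il10-/- mice and 0.22, 0.59, 0.77, 0.82 and 1.07 in C57 mice. Its intact colon ratios were 1.98, 2.70 and 3.43 and 2.28, 3.45 and 5.26. The epithelial groups did not overlap and the intact colon groups did, and the rise of 3.97-fold in epithelium (adjusted p = 0.000167) stood against -0.79 log2 units in intact colon (adjusted p = 0.277). Duox2 thus had a tissue difference of 2.78 (SE 0.55, adjusted p = 0.00346).

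Ltf and Pigr, both chosen after their values were seen, changed the other way. Pigr, the receptor that carries polymeric immunoglobulin across the epithelium, had intact colon ratios of 0.31, 1.08 and 1.22 in Il10-/- mice and -1.36, -0.95 and -0.078 in C57 mice. Its epithelial ratios of -0.47, -0.15 and 0.23 and -0.69, -0.55, -0.43, -0.21 and -0.014 overlapped, at a signal 0.92 and 0.73 log2 units over the negative controls. For Pigr the tissue difference came to -1.49 (SE 0.30, adjusted p = 0.00398). Ltf, which encodes the iron-binding protein lactoferrin, rose 6.02-fold in intact colon and at least 1.71-fold in epithelium, where no C57 array was well above background, so that its measured tissue difference of -1.59 is 1 of those not settled. Retnlb, a goblet cell protein active against bacteria and worms, and S100a8, a subunit of the neutrophil protein calprotectin, had tissue differences of -1.80 (adjusted p = 0.0597) and -1.85 (adjusted p = 0.0961), which were not called. No C57 epithelial array had S100a8 well above background, so its rise in epithelium was at least 4.35-fold and its difference is not settled. Both differences were called without replicate 2 of the Il10-/- intact colon, at -2.07 and -2.25.

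**Figure D2:**
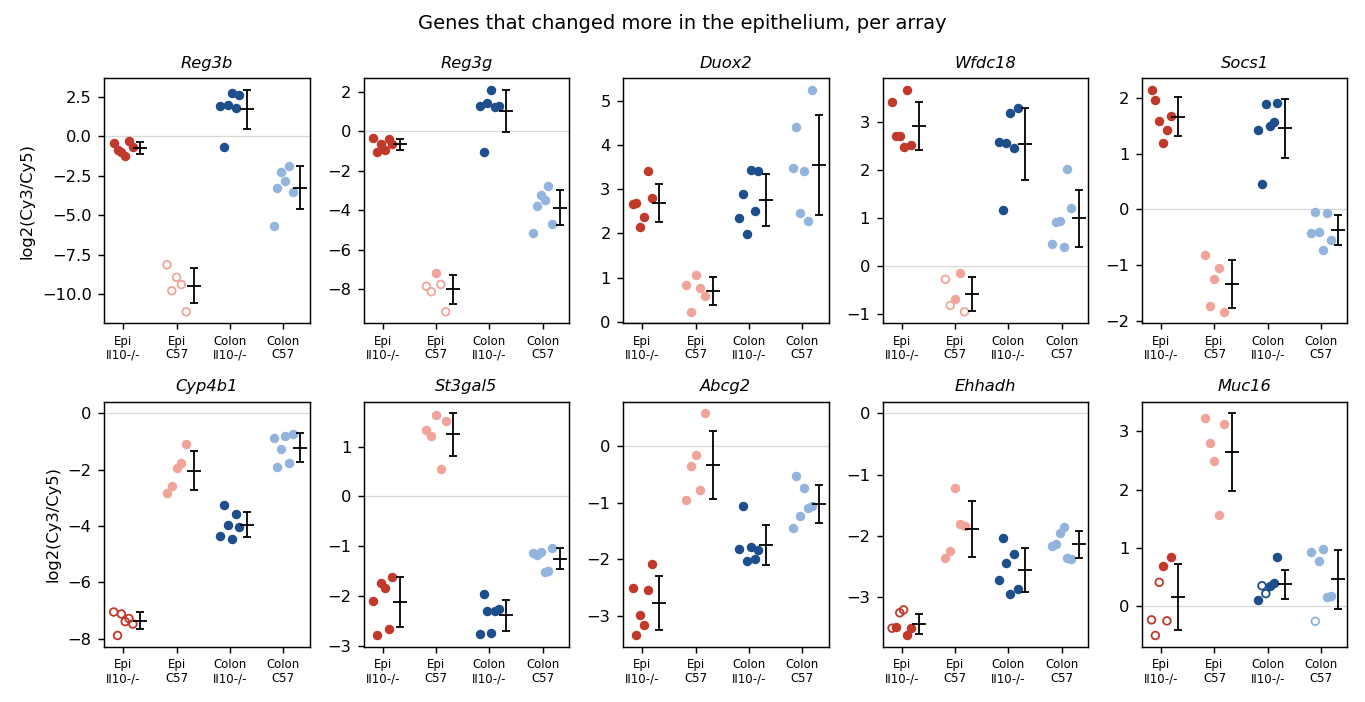
Log2(Cy3/Cy5) of 10 genes per array in the 4 groups at 12 weeks, with open circles where the probe was not well above background and a black bar for the mean ± SD of each group. The first 5 genes rose and the last 5 fell in the epithelium of Il10-/- mice, and in these genes the epithelial groups lie farther apart than those of intact colon.

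Several other genes rose more in epithelium. Wfdc18, a small whey acidic protein-type secreted protein, had epithelial ratios of 2.48, 2.71 and 3.68 in Il10-/- mice and -0.96, -0.83, -0.70, -0.28 and -0.14 in C57 mice, and intact colon ratios of 1.17, 2.58 and 3.30 and 0.40, 0.93 and 2.02. Its groups did not overlap in epithelium and overlapped in intact colon, with rises of 11.4-fold and 2.95-fold and a tissue difference of 1.95 (SE 0.45, adjusted p = 0.0118). Slc27a1, a long-chain fatty acid transporter, had epithelial ratios of 2.23, 3.21 and 3.94 in Il10-/- mice and 0.55, 0.75, 1.77, 1.81 and 2.35 in C57 mice. Its intact colon ratios, -0.11, 0.26 and 0.62 and -0.000, 0.33 and 0.85, overlapped widely and the epithelial ones narrowly, and the tissue difference was 1.90 (SE 0.39, adjusted p = 0.0046).

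Within the interferon response list, Socs1 and Ifit3 had called differences above 0. Socs1, a feedback inhibitor of cytokine signalling, had epithelial ratios of 1.18, 1.63 and 2.15 in Il10-/- mice and -1.84, -1.74, -1.26, -1.06 and -0.82 in C57 mice, and intact colon ratios of 0.45, 1.53 and 1.90 and -0.73, -0.42 and -0.050. It rose in both tissues without overlap of the groups, 8.02-fold in epithelium and 3.54-fold in intact colon, a tissue difference of 1.18 (SE 0.32, adjusted p = 0.0334), lost on leaving out any 1 of 7 of the 23 arrays. Ifit3, an antiviral protein chosen here after its values were seen, rose 2.3-fold in epithelium (adjusted p = 0.00015) and was not called in intact colon at 0.18 log2 units (adjusted p = 0.551). Its tissue difference was 1.02 (SE 0.23, adjusted p = 0.00908), while a second probe that was not measurable gave -0.01.

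Sult4a1 and Ckb were called in opposite directions, each by 1 of its probes. Ckb, the brain-type creatine kinase, had epithelial ratios of -1.03, -0.90 and -0.61 in Il10-/- mice and -2.96, -2.51, -1.76, -1.69 and -1.498 in C57 mice, and intact colon ratios of -0.28, -0.20 and 0.19 and -0.094, 0.98 and 1.18. It was thus higher in every epithelial Il10-/- array than in any C57 array, while in intact colon the groups overlapped by 1 C57 array, and the tissue difference was 2.18 (SE 0.31, adjusted p = 0.00013). A second Ckb probe, which did not meet the detection rule, had changes of 0.00 in epithelium and -0.88 in intact colon and a tissue difference of 0.88. Sult4a1, a sulfotransferase of neurons, had epithelial ratios of 0.58, 1.27 and 2.05 and -0.50, -0.24, -0.14, 0.37 and 0.45 and intact colon ratios of 0.23, 0.46 and 0.65 and 0.67, 1.41 and 1.79, in Il10-/- and C57 mice respectively. The groups did not overlap in either tissue. That probe gave a tissue difference of 2.22 (SE 0.30, adjusted p = 7.93e-05), but a second Sult4a1 probe, also not measurable, gave 0.17. The opposite movement therefore rests on 1 probe for each gene.

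Antigen processing and presentation genes were called higher in more cases in intact colon than in epithelium. Of 22 measurable genes, 19 rose in intact colon (86.4%, against 8.28% of all measurable genes) and 9 in epithelium (40.9%, against 4.92%), and none was called lower. Of the 20 that met the detection rule in all 4 groups, 17 and 7 rose. The tissue difference was called below 0 for 5 of the 22 (H2-DMa, H2-DMb2, H2-Ab1, Ciita and Tapbpl) and above 0 for none, with a median of -0.33. The first 3 encode chains of major histocompatibility complex class II molecules or of the H2-DM complex that loads peptide onto them, Ciita is the transactivator of class II genes, and Tapbpl edits peptides for class I molecules. Other class II genes, chosen after their values were seen, rose about as far in epithelium as in intact colon: the invariant chain Cd74 by 2.36 and 2.01 log2 units, H2-DMb1 by 2.59 and 2.56, and H2-Eb1 by 1.53 and 1.41.

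H2-DMa had intact colon ratios of 1.12, 1.46 and 1.82 in Il10-/- mice and -1.14, -0.68 and -0.36 in C57 mice, a 4.46-fold rise (adjusted p = 6.97e-07) with no overlap. Its epithelial ratios of 0.31, 0.46 and 0.63 and 0.10, 0.19, 0.28, 0.29 and 0.34 overlapped slightly, with a change of 0.22 (SE 0.069, adjusted p = 0.139). The tissue difference of -1.94 (SE 0.17, adjusted p = 3.94e-07) stands beside an epithelial signal only 0.68 and 0.59 log2 units over the negative controls. H2-DMb2 had intact colon ratios of 1.51, 1.73 and 2.07 against -1.20, -0.62 and -0.40, and epithelial ratios of 0.34, 0.50 and 0.74 against -0.27, -0.20, -0.14, -0.13 and 0.15. Both tissues rose without overlap, 5.5-fold in intact colon and 1.57-fold in epithelium, and the tissue difference was -1.81 (SE 0.18, adjusted p = 1.82e-06) at an epithelial signal of 0.66 and 0.28 over the controls.

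For H2-Ab1 the epithelial signal was high but its probes disagreed. The brightest probe, 5.05 log2 units over the negative controls in the Il10-/- epithelium, had epithelial ratios of 0.24, 0.75 and 1.99 in Il10-/- mice and -0.22, 0.055, 0.95, 0.98 and 1.23 in C57 mice, which overlapped. Its intact colon ratios were 2.42, 2.62 and 3.10 and -0.29, 1.02 and 1.34, and the tissue difference was -1.55 (SE 0.44, adjusted p = 0.0426), a call lost on leaving out any 1 of 15 of the 23 arrays. The other 3 probes gave -1.93, -1.67 and 0.51, and the last of them rose by 2.16 in epithelium and 1.65 in intact colon. The probe at -1.67 did not meet the detection rule. Of the 4 probes, 3 were thus called below 0 and 1 was not called. Ciita, chosen after its values were seen, rose 6.27-fold in intact colon and at least 2.46-fold in epithelium, where no C57 array was well above background, so its measured tissue difference of -1.14 is not settled.

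The guanylate-binding proteins, interferon-induced GTPases that attack pathogen vacuoles, gave the called differences below 0 in the interferon list. Of 29 measurable interferon genes 26 rose in intact colon and 24 in epithelium (20 and 20 of the 23 that met the rule in all 4 groups), the median difference was 0.07, and Gbp4 and Gbp5 were called below 0. Gbp4 had intact colon ratios of 0.27, 1.39 and 1.64 in Il10-/- mice and -1.84, -1.44 and -1.26 in C57 mice, a 6.56-fold rise without overlap. Its epithelial ratios were -0.37, 0.19 and 0.39 and -0.72, -0.70, -0.65, -0.39 and -0.27, and as no C57 epithelial array was well above background the rise there is at least 1.42-fold. Gbp5 rose 4.16-fold in intact colon, and its epithelial change of 0.57 log2 units (adjusted p = 0.0493) was under the 1.5-fold limit of a call, likewise with no C57 array well above background. The measured differences of -2.05 for Gbp4 and -1.48 for Gbp5 are therefore not settled. With the signals processed by the image software the differences were not called for H2-DMb2 (-0.71), Gbp4 (-1.22) and Gbp5 (-0.45), and that of Ciita turned to 0.49.

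The promoters of H2-DMb2 (chr17:34144999-34145248 on the plus strand) and Gbp5 (chr3:142496684-142496933 on the plus strand) are shown because both genes rose in intact colon and had called differences below 0, with capitals for the same letters as above.
H2-DMb2: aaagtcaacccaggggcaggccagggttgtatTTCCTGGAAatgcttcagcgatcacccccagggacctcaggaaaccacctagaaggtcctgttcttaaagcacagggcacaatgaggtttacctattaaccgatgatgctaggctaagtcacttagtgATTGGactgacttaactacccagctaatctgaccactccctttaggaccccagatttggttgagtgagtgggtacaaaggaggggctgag
Gbp5: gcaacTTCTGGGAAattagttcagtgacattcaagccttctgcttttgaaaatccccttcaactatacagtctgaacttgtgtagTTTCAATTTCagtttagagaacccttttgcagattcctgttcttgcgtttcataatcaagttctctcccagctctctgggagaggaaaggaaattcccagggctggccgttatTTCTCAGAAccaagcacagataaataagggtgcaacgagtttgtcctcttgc
TTCNNNGAA occurred 218 bases before the start in H2-DMb2 and 245 and 52 bases before it in Gbp5. The reverse element, TTTC and TTTC with any 2 bases between them, held in 1 direction or the other by 2.98% of promoters, was found 165 bases before the Gbp5 start. ATTGG, 90 bases before the H2-DMb2 start, is common, with 33.8% of promoters holding CCAAT or its reverse.

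Cytokines and their receptors rose in 11 of 22 measurable genes in intact colon and in 7 in epithelium, and in 8 and 5 of the 15 that met the rule in all 4 groups. The tissue difference was called for Tnf, Il10ra and Il21r, all below 0, and the median of the list was -0.04. Tnf, which encodes the inflammatory cytokine tumour necrosis factor, had intact colon ratios of 1.17, 2.04 and 2.80 in Il10-/- mice and -0.28, -0.13 and 0.29 in C57 mice, a 4.51-fold rise with no overlap. Its epithelial ratios were 0.16, 0.30 and 0.57 and 0.015, 0.035, 0.038, 0.14 and 0.23, at 0.45 and 0.32 log2 units over the negative controls. The epithelial change of 0.22 log2 units (adjusted p = 0.211) was not called. No C57 epithelial array had Tnf well above background, so its measured tissue difference of -1.95 is also not settled. Il10ra, a chain of the interleukin-10 receptor, rose 2.76-fold in intact colon with an epithelial change of 0.43 (adjusted p = 0.237) and a tissue difference of -1.03 (SE 0.20, adjusted p = 0.00304). Il21r, the interleukin-21 receptor, chosen after its values were seen, gave -0.92 (SE 0.15, adjusted p = 0.000715).

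**Figure D3:**
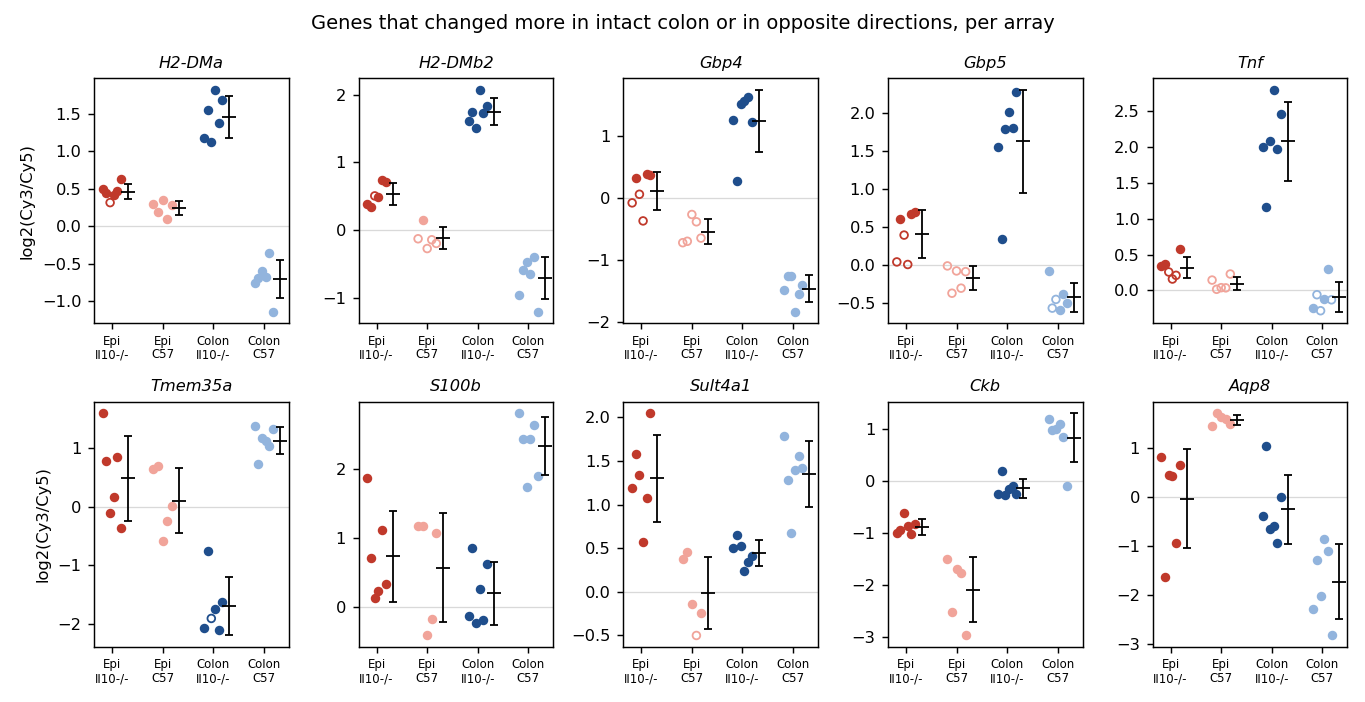
Log2(Cy3/Cy5) of 10 genes per array in the 4 groups at 12 weeks, drawn with open circles for arrays not well above background and a black bar for the mean ± SD. H2-DMa, H2-DMb2, Gbp4, Gbp5 and Tnf rose in intact colon, with open circles in all C57 epithelial arrays for Gbp4, Gbp5 and Tnf, Tmem35a and S100b fell in intact colon and were not called in epithelium, Sult4a1 and Ckb were higher in Il10-/- epithelium and lower in Il10-/- intact colon, and Aqp8 was the reverse.

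Aqp8 and Clca4b had the largest measured differences below 0 among the called genes. Aqp8, the water channel of absorptive colonocytes, had epithelial ratios of -1.63, 0.45 and 0.83 in Il10-/- mice and 1.46, 1.501, 1.60, 1.64 and 1.72 in C57 mice. Its intact colon ratios were -0.94, -0.48 and 1.06 and -2.83, -1.65 and -0.86. Every Il10-/- array was below every C57 array in epithelium, whereas in intact colon the Il10-/- arrays were mostly the higher ones, with a small overlap. The intact colon rose 2.79-fold (adjusted p = 0.0124), the epithelial change was -1.61 (SE 0.40, adjusted p = 0.0501), just outside the call, and the tissue difference was -3.09 (SE 0.58, adjusted p = 0.0021).

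Clca4b and Clca4a, members of the calcium-activated chloride channel regulator family, rose in intact colon and were not called in epithelium. Clca4b had intact colon ratios of -1.74, 0.60 and 0.97 in Il10-/- mice and -2.94, -2.27 and -1.52 in C57 mice, and epithelial ratios of -0.41, -0.17 and 1.096 and -0.75, -0.16, 0.61, 1.18 and 1.68. The groups overlapped in epithelium and narrowly in intact colon, where replicate 2 of the Il10-/- mice was the lowest, and the tissue difference was -2.99 (SE 0.62, adjusted p = 0.00551). Clca4a rose 5.58-fold in intact colon, with an epithelial change of 0.47 (SE 0.28, adjusted p = 0.607) and a tissue difference of -2.005 (SE 0.46, adjusted p = 0.0118). The probes of both lie on chromosome 3, and how far they share signal was not tested. Chmp4b, a subunit of the ESCRT-III membrane scission complex, had intact colon ratios of -1.41, -0.73 and 0.33 against -2.83, -1.83 and -1.72 and epithelial ratios of 0.51, 0.57 and 0.92 against 0.79, 0.89, 1.18, 1.48 and 1.65, with a tissue difference of -1.94 (SE 0.36, adjusted p = 0.00189). A second measurable Chmp4b probe gave -0.48 and was not called.

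Among matrix metalloproteinases and related enzymes, 8 of 11 measurable genes rose in intact colon (72.7%, against 8.28% of all measurable genes) and 4 in epithelium (36.4%, against 4.92%), and of the 6 that met the rule in all 4 groups, 4 and 3. Mmp7, or matrilysin, and Adam8, a membrane metalloproteinase of leukocytes chosen after its values were seen, were called below 0. Mmp7 had intact colon ratios of -0.70, 0.66 and 0.86 in Il10-/- mice and -2.16, -1.80 and -1.51 in C57 mice and a measured tissue difference of -1.40, which is not settled, as no C57 epithelial array was well above background. That call was lost on leaving out any 1 of 14 of the 23 arrays, and the value was -0.83 after normexp background correction and -0.36 with the signals processed by the image software, neither called. Adam8 rose in both tissues, 4.08-fold in intact colon and 2.13-fold in epithelium, and its tissue difference was -0.94 (SE 0.26, adjusted p = 0.0395), a call lost on leaving out any 1 of 16 of the 23 arrays. Mmp3, or stromelysin, had a tissue difference of -1.19 (SE 0.82, adjusted p = 0.532), which was not called.

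Xenobiotic and steroid metabolism was the list with the most called genes. Of 32 measurable genes, 25 fell in epithelium (78.1%, against 4.65% of all measurable genes) and 21 in intact colon (65.6%, against 9.58%), and none was called higher in either. Of the 27 that met the rule in all 4 groups, 21 and 17 fell. The tissue difference was called below 0 for 6 and above 0 for none, and its median was -0.74, beside -0.49 for the 15 general epithelium markers above, whose part in these lists was not tested, with list medians of -1.51 in epithelium and -0.89 in intact colon. The 6 genes were the cytochromes P450 Cyp4b1, Cyp3a13 and Cyp2j6, the efflux pump Abcg2, the glutathione transferase Gstm3 and Nr1i2, which encodes the drug-sensing pregnane X receptor.

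Cyp4b1 had epithelial ratios of -7.89, -7.34 and -7.05 in Il10-/- mice and -2.82, -2.60, -1.94, -1.75 and -1.097 in C57 mice, and intact colon ratios of -4.46, -4.01 and -3.27 and -1.90, -1.07 and -0.74. The strains were fully apart in both tissues. No Il10-/- epithelial array was well above background, so the fall was at least 35.7-fold in epithelium against 6.61-fold in intact colon, with a measured tissue difference of -2.60 (SE 0.39, adjusted p = 0.000225) and one of -2.43 or lower against the bound. Abcg2 had epithelial ratios of -3.34, -2.76 and -2.07 and -0.94, -0.78, -0.35, -0.16 and 0.58 and intact colon ratios of -2.03, -1.82 and -1.06 and -1.45, -1.07 and -0.52. The epithelial groups did not overlap and the intact colon groups did, with falls of 5.41-fold and 1.66-fold and a tissue difference of -1.70 (SE 0.35, adjusted p = 0.00449). A second measurable Abcg2 probe had changes of -0.63 and -0.72 and a tissue difference of 0.08, so the larger epithelial fall rests on 1 probe.

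The other 4 called genes of the list were chosen after their values were seen. Cyp3a13 fell 3.94-fold in epithelium and 1.73-fold in intact colon, a tissue difference of -1.19 (SE 0.27, adjusted p = 0.0117). Gstm3 fell 2.49-fold in epithelium, with -0.13 log2 units in intact colon (adjusted p = 0.694) and a tissue difference of -1.19 (SE 0.26, adjusted p = 0.00833). Nr1i2 was called in neither tissue, at -0.41 and 0.42 log2 units, but its changes ran in opposite directions and the tissue difference was -0.83 (SE 0.22, adjusted p = 0.0325), a call lost on leaving out any 1 of 12 of the 23 arrays. Cyp2j6, 0.23 log2 units over the negative controls in Il10-/- epithelium, gave -0.80 (SE 0.20, adjusted p = 0.0227). Cyp2c55, a fatty acid hydroxylase of colonocytes, fell 28.8-fold in epithelium and 9.9-fold in intact colon, and its tissue difference of -1.54 was not called (adjusted p = 0.21).

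St3gal5 and Muc16 also fell more in epithelium. St3gal5, which makes the ganglioside GM3, had epithelial ratios of -2.78, -1.96 and -1.61 in Il10-/- mice and 0.54, 1.21, 1.34, 1.502 and 1.63 in C57 mice, and intact colon ratios of -2.75, -2.30 and -1.96 and -1.52, -1.16 and -1.03. The groups were apart in both tissues, with falls of 10.3-fold and 2.2-fold and a tissue difference of -2.22 (SE 0.29, adjusted p = 6.72e-05). Muc16, a large membrane mucin, had epithelial ratios of -0.50, 0.091 and 0.84 and 1.57, 2.50, 2.81, 3.12 and 3.22 and overlapping intact colon ratios of 0.10, 0.36 and 0.85 and -0.26, 0.48 and 0.98. Its tissue difference was -2.40 (SE 0.40, adjusted p = 0.000684), while a second probe that was not measurable gave -0.01.

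Fatty acid oxidation and transport genes had few calls, and list medians close to the -0.49 of the general epithelium markers. Of 34 measurable fatty acid oxidation genes and targets of the receptor PPAR alpha, 17 fell in epithelium and 10 in intact colon (16 and 8 of the 31 that met the rule in all 4 groups), the median difference was -0.44, and Ehhadh and Bdh1 were called. Ehhadh, the bifunctional enzyme of peroxisomal beta-oxidation, had epithelial ratios of -3.62, -3.49 and -3.20 in Il10-/- mice and -2.36, -2.25, -1.83, -1.80 and -1.21 in C57 mice and intact colon ratios of -2.95, -2.58 and -2.03 and -2.38, -2.15 and -1.85. The epithelial groups did not overlap and those of intact colon did, and the tissue difference was -1.12 (SE 0.24, adjusted p = 0.00772). Bdh1, which interconverts ketone bodies, fell 1.72-fold in epithelium against 0.15 log2 units in intact colon (adjusted p = 0.57), a tissue difference of -0.93 (SE 0.21, adjusted p = 0.0107), while a second probe that was not measurable gave -0.14. Ppara itself, well above background on no Il10-/- epithelial array, had a measured difference of 0.85 that was not called.

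Of 34 measurable genes of ion, water and nutrient transport, 13 fell and 1 rose in epithelium, and 12 fell and 3 rose in intact colon. Of the 32 that met the rule in all 4 groups, 13 fell in epithelium, and 12 fell and 2 rose in intact colon. The list median was -0.51, and Aqp8 and the phosphate transporter Slc20a1 were called. Slc20a1 fell 4.11-fold in epithelium and 1.83-fold in intact colon, with a tissue difference of -1.17 (SE 0.32, adjusted p = 0.0362), a call lost on leaving out any 1 of 13 of the 23 arrays. A second measurable Slc20a1 probe had changes of -0.10 and -0.05 and a difference of -0.054, not called. S100g, a vitamin D-dependent calcium-binding protein, fell 10.6-fold in epithelium and 20.9-fold in intact colon, and its difference of 0.98 (SE 0.73, adjusted p = 0.571) was not called, but was called at 1.57 with the slide as a block (adjusted p = 0.0397). Of 23 junction and adhesion genes, the desmosomal plakin Dsp gave -1.34 (SE 0.34, adjusted p = 0.0241) and the tight junction protein Cldn4 gave -1.26 (SE 0.36, adjusted p = 0.0442), a call lost on leaving out any 1 of 16 of the 23 arrays and with the slide as a block (adjusted p = 0.0704). A second measurable Dsp probe gave -0.66 and was not called.

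The differences above 0 included genes of nerve, glia and muscle that fell in intact colon and were not called in epithelium. Of 5 measurable markers of enteric neurons and glia, 4 fell in intact colon and none was called in epithelium, and S100b, Nos1 and Sox10 had called differences. Of the 4 that met the rule in all 4 groups, 3 fell in intact colon and 2 had called differences. S100b, a calcium-binding protein of enteric glia, had intact colon ratios of -0.24, 0.060 and 0.85 in Il10-/- mice and 1.74, 2.44 and 2.81 in C57 mice, a 4.39-fold fall without overlap. Its epithelial ratios of 0.13, 0.52 and 1.87 and -0.42, -0.18, 1.07, 1.17 and 1.17 overlapped, and the tissue difference was 2.30 (SE 0.46, adjusted p = 0.00373). Nos1, the neuronal nitric oxide synthase, fell 2.03-fold in intact colon and gave 1.58 (SE 0.45, adjusted p = 0.0443), and Sox10, a transcription factor of glia chosen after its values were seen, gave 0.70 (SE 0.17, adjusted p = 0.0153), a call lost with the slide as a block (adjusted p = 0.0568). Second probes that were not measurable gave 0.13 for Nos1 and 0.16 for Sox10. The Nos1 call was lost on leaving out any 1 of 16 of the 23 arrays. Uchl1, an abundant ubiquitin hydrolase of neurons, fell 3.38-fold in intact colon with -0.53 log2 units in epithelium, and had a difference of 1.23 (SE 0.54, adjusted p = 0.242), not called. A second Uchl1 probe that was not measurable in both tissues was called at 1.28.

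Of 10 measurable smooth muscle genes, 8 fell in intact colon (80%, against 9.58% of all measurable genes) and none was called in epithelium. All 10 met the rule in all 4 groups. The median change was -1.16 in intact colon and -0.46 in epithelium, where the genes ran from -1.104 for Lmod1 to 0.34 for Synpo2. The median difference was 0.62, and 1 gene was called, Actg2, the enteric gamma-actin, with 0.86 (SE 0.24, adjusted p = 0.0364), a call lost on leaving out any 1 of 16 of the 23 arrays. Its epithelial signal lay 0.57 and 0.54 log2 units over the negative controls. Myh11, smooth muscle myosin, gave 1.13 (SE 0.47, adjusted p = 0.216) and Acta2, alpha smooth muscle actin, gave 0.81 (SE 0.46, adjusted p = 0.417), neither of which was called. Of 4 other Acta2 probes, 1 that was measurable gave 1.42 without a call, and of 3 that were not, 1 was called at 1.19. The mean log2 ratio over the 12 smooth muscle markers on the array ranged from -0.88 to 0.16 in Il10-/- and from 0.13 to 0.94 in C57 intact colon. In epithelium it ranged from -1.81 to -0.31 and from -1.07 to -0.10. For the 15 neuron and glia markers the intact colon ranges were 0.12 to 0.69 and 0.79 to 1.36, and the epithelial ranges were -0.35 to 0.26 and -0.36 to 0.05. Whether less muscle and nerve entered the Il10-/- samples of intact colon was not tested.

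Tmem35a, a membrane protein needed for nicotinic receptor assembly, had the second largest measured difference above 0. Its intact colon ratios were -2.10, -1.83 and -0.75 in Il10-/- mice and 0.74, 1.14 and 1.38 in C57 mice, a 7.11-fold fall (adjusted p = 1.30e-06) with no overlap. In epithelium the ratios of -0.37, 0.47 and 1.60 and -0.58, -0.25, 0.019, 0.64 and 0.70 overlapped, at signals 4.53 and 4.26 log2 units over the negative controls. This gave a tissue difference of 3.21 (SE 0.41, adjusted p = 5.53e-05). Lrmda, a melanocyte differentiation gene, fell 5.45-fold in intact colon, from 0.53, 0.83 and 0.92 to -2.05, -1.82 and -1.16. Its epithelial ratios were -1.46, -1.29 and -0.73 in Il10-/- mice, where 1 of 6 arrays was well above background, and -1.09, -0.85, -0.67, -0.38 and -0.24 in C57 mice, and its tissue difference was 1.90 (SE 0.24, adjusted p = 5.29e-05), or 0.48 and not called with the signals processed by the image software.

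The stromal genes Sparc and Thy1 each had 1 probe called above 0. Of 16 measurable fibroblast genes 4 rose and 1 fell in each tissue, with a median difference of -0.02. The counts of rises and falls were the same for the 15 that met the rule in all 4 groups. Sparc, a collagen-binding matrix protein, rose 2.22-fold in epithelium with -0.054 log2 units in intact colon (adjusted p = 0.915), a tissue difference of 1.21 (SE 0.30, adjusted p = 0.0209), and a second probe that was not measurable gave -0.020. Thy1, a surface protein of fibroblasts and T cells, rose in both tissues, 2.84-fold and 1.6-fold, with a tissue difference of 0.83 (SE 0.20, adjusted p = 0.0195). A second measurable Thy1 probe, with changes of 0.60 and 0.78, gave -0.18 and was not called, so both differences rest on 1 probe.

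Each of the immune cell lists had more genes called higher in intact colon than in epithelium, but neutrophil markers mostly met the detection rule through 1 strain only, with 1 of 7 in all 4 groups and that one called in neither tissue. In T cells 6 of 9 measurable genes rose in intact colon and 3 in epithelium, in macrophages and dendritic cells 8 of 10 and 4, in neutrophils 6 of 7 and 4, and in intraepithelial lymphocytes 7 of 10 and 5. Of those that met the rule in all 4 groups, the counts were 6 and 3 of 7 for T cells, 8 and 4 of 10 for macrophages and dendritic cells, and 4 and 3 of 7 for intraepithelial lymphocytes. In B cells 4 of 6 rose in intact colon and none was called in epithelium, with a median difference of -0.75. Of the 5 B cell genes that met the rule in all 4 groups, 3 rose in intact colon. Called below 0 were Zap70, a T cell receptor kinase, at -0.78 (SE 0.16, adjusted p = 0.00456), Cd22, a B cell co-receptor, at -1.23 (SE 0.21, adjusted p = 0.000946), and C1qb, a complement subunit of macrophages, at -0.98 (SE 0.28, adjusted p = 0.0433), a call lost on leaving out any 1 of 16 of the 23 arrays. C1qc, another chain of the same complex, had changes of 1.01 in epithelium and 0.56 in intact colon and a difference of 0.45, not called. A second Cd22 probe that was not measurable gave -0.017. Zap70, Cd22 and C1qb had epithelial signals no more than 0.63 log2 units over the negative controls. The mean log2 ratio over 10 B cell markers ranged from 0.66 to 1.61 in Il10-/- and -0.27 to 0.18 in C57 intact colon, and from 0.31 to 1.20 and 0.09 to 0.20 in epithelium, where Cd79a and Pax5 were well above background on no array of either strain.

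Other lists gave no called difference in the fit described. None of 26 measurable chemokines, 37 genes of mitochondrial electron transport or 32 cell cycle genes was called, with medians of -0.05, -0.16 and -0.15. Chemokines rose in 14 genes in intact colon and 10 in epithelium, and cell cycle genes in 19 and 11. Of those that met the rule in all 4 groups, chemokines rose in 7 and 6 of 19 genes, and cell cycle genes in 17 and 10 of 30. The neutrophil-attracting chemokine Cxcl5 had the widest gap among them, -2.74 (SE 0.82, adjusted p = 0.0599), with intact colon ratios of 0.48, 4.32 and 4.82 in Il10-/- mice, whose lowest value was replicate 2, and without that array it was called at -3.39. Goblet, enteroendocrine, stem cell, endothelial, plasma and mast cell markers likewise had no called gene, and the colonocyte list had Aqp8 alone, with a median of -0.66 over 11 genes.

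Of 26 measurable genes that the study listed as linked to inflammatory bowel disease, 23 rose in intact colon and 15 in epithelium, but of the 9 that met the detection rule in all 4 groups, 7 rose in each and none had a called difference. By the brightest probe of each gene, Reg3b and Reg3g were called above 0 and Tnf and Mmp7 below 0. A less bright probe of Ifng was also called below 0, at -1.17. The study drew that list from earlier work on the inflamed mucosa of patients. Il18 and Tap2, which the study also followed by another method, had differences of -0.62 (SE 0.24, adjusted p = 0.159) and -0.98 (SE 0.38, adjusted p = 0.166). With the slide as a block Tap2 was called at -1.05 (adjusted p = 0.0435). For the chaperone Canx, the reference gene of that method, the difference was -0.062 (SE 0.16, adjusted p = 0.907). The drug efflux pump Abcb1a fell 4.13-fold in intact colon, but in epithelium only 1 of 11 arrays was well above background, so it was not among the measurable probes.

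**Figure D4:**
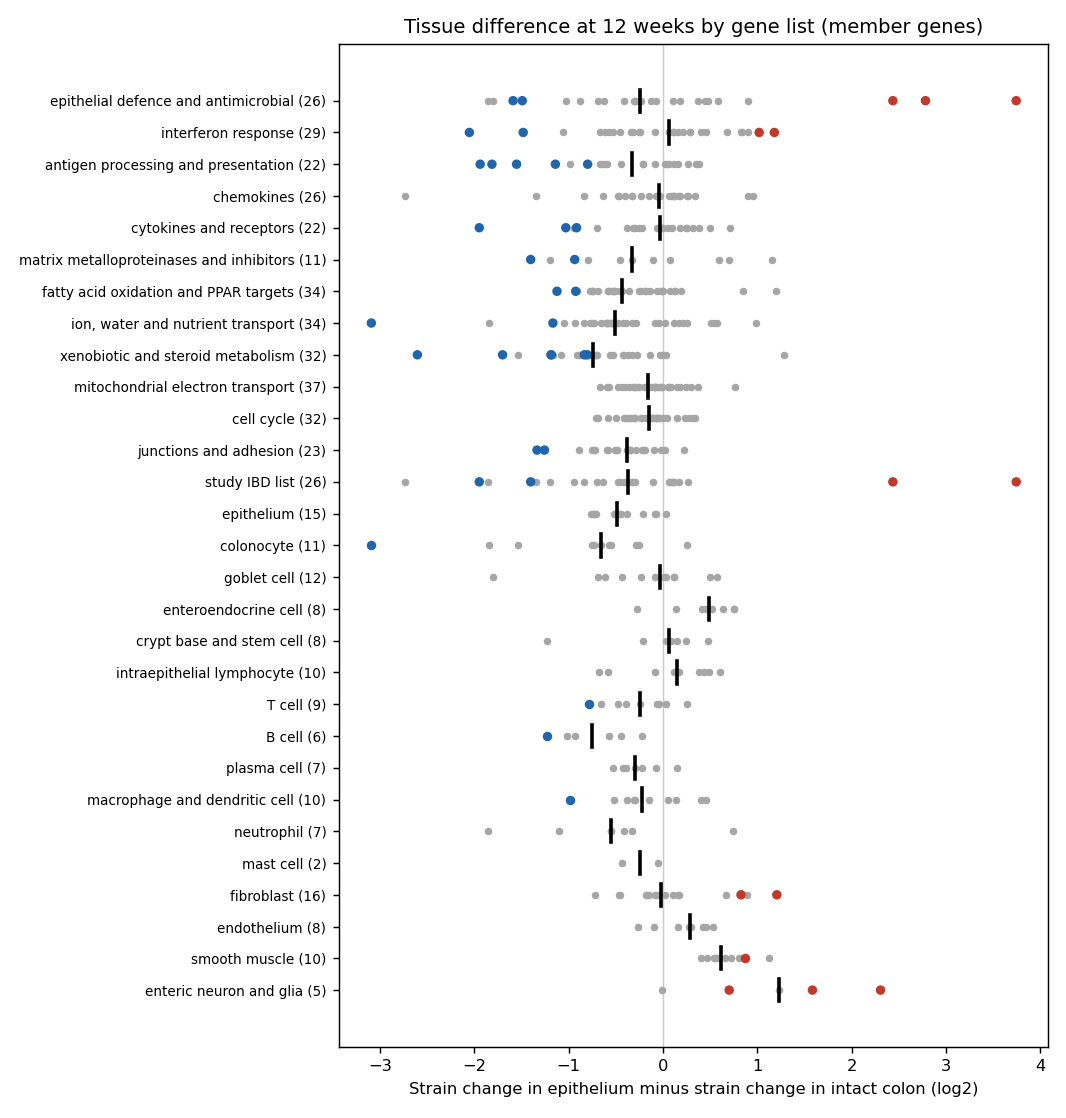
Tissue difference (log2, x axis) of each measurable gene in the gene and marker lists, with the number of genes in brackets. Red and blue points are called genes above and below 0, grey points were not called, and the black bar is the list median, which is lowest for B cell markers at -0.75 and highest for enteric neuron and glia markers at 1.23.

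Of 51 called genes described above, 18 kept their call in all 36 alternative settings, among them Tmem35a, Duox2, Sult4a1, Ckb, Slc27a1, Ehhadh, Abcg2, H2-DMa, St3gal5, Muc16, Cyp4b1, Clca4b and Aqp8. When the 47 arrays of both ages were fitted together, 12 lost it: Reg3b, Reg3g, S100b, Sparc, Socs1, Thy1, Slc20a1, Dsp, H2-Ab1, Adam8, Ifit3 and Nr1i2. Normexp background correction ended 13 calls, those of Nos1, Actg2, Zap70, Cldn4, Mmp7, Gbp5, H2-Ab1, Adam8, Ciita, Cyp2j6, Ltf, Nr1i2 and Sox10.

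The signals processed by the image software ended 24 of the 51 calls. Beside those given above, they were those of Nos1, Socs1, Actg2, Thy1, C1qb, Il10ra, Slc20a1, Cldn4, Dsp, H2-Ab1, Clca4a, Adam8, Cyp2j6, Ltf, Nr1i2, Pigr, Sox10 and Tapbpl. In 9 genes that stayed called the difference became more than 1.5 times as large, reaching 5.45 for Reg3g, 3.13 for Wfdc18, -2.95 for Ehhadh, -4.80 for Muc16 and -5.85 for Cyp4b1, with Reg3b, Zap70, Cd22 and Il21r as the others. Of the genes described, 23 had epithelial signals under 1 log2 unit over the negative controls in both strains, and 20 of these had called differences. They were Lrmda, Nos1, Actg2, Sox10, Zap70, Tapbpl, Cyp2j6, Il21r, C1qb, Il10ra, Cd22, Cldn4, Mmp7, Gbp5, Pigr, Ltf, H2-DMb2, H2-DMa, Tnf and Gbp4.

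The same contrast at 6 weeks of age, soon after inoculation, gave few calls. Of all 41174 probes 5 were called (0.0121%), of which 2 were measurable probes, for Lrmda and Ap1s3. Lrmda was as far apart at 6 weeks, 2.002 (adjusted p = 1.18e-06), with intact colon means of -2.05 ± 0.21 (SD, n = 6) in Il10-/- mice and 0.44 ± 0.28 (SD, n = 6) in C57 mice. Ap1s3, a subunit of the clathrin adaptor complex, gave -1.43 at 6 weeks (adjusted p = 0.0185) and -1.36 at 12 weeks (adjusted p = 0.000559). The other 3 probes, for Il10, Pam and Slc25a37, were not measurable in both tissues. Reg3b and Reg3g had 6-week differences of 2.87 and 3.14 that were not called.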

How the data were processed

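Agilent two-colour arrays of 12-week mice were compared. Per the file headers, the deposited scanner files hold intensity values, with the log10 ratio of red over green and detection flags, from Feature Extraction 9.5.1.1 (intact colon) and 10.10.1.1 (epithelium). The deposited value table holds log2 ratios of Cy5 over Cy3 that the authors normalised with limma in R 2.14.1. Set against loess-normalised scanner ratios, its columns had r of at least 0.9976, with medians of -0.02 to 0.01, so scale, centring and direction were settled. The sign was turned so that higher values mean more sample RNA.

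Spots of a probe were averaged and control spots left out. The tissue difference was a contrast of 4 group means over 23 arrays, and each strain change was fitted within its tissue, with lmFit and eBayes of limma 3.58.1 in R 4.3.3 (two-sided, Benjamini-Hochberg over 41174 probes). The fit was tested on simulated data. The intensity columns and log10 ratios entered alternatives only. Probes not well above background on any array of a group are given as a bound, computed against the higher of the probe's own value and the lowest value of probes well above background, per array after scaling between arrays. Gene names came from accessions for 22951 probes, from the symbol in the files matched to a current one for 6659 or to an older one for 3109, and from the name in the files alone for 8455. Slides hold arrays of both strains, and 5 epithelial and 6 intact colon within-slide comparisons were made, with the slide also fitted as a block. The labels do not say that a replicate number marks 1 mouse in both tissues. The paper took pieces for both tissues from the proximal colon of the mice, so the same mice may have given both. The main fit treats the 23 arrays as independent.

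Members and gene lists were chosen with earlier results of these data known. The genes named are the 10 largest called differences in each direction, those called in opposite directions, up to 3 genes per list, those the study measured by another method, and Il10 and Abcb1a. Alternatives were other background corrections and normalisations, detection rules, spread estimates, array weights, a slide or replicate block, fold thresholds and leaving out each array. Promoter sequences came from RefSeq (GRCm38.p6), which held 53 of the 69 genes so chosen. Results for some items are not reported here. Precision is limited by the number of arrays.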

Additional observations from a re-analysis of the deposited data

Results flagged for a closer look

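Among the genes chosen for description, 30 of 276 sets of arrays (1 gene in 1 group) held a sample that stood far from the rest of its group, where chance alone gives about 1 in 20. Of these 30, 17 fell on replicate 2 of the Il10-/- intact colon. Its log2 ratio lay toward the C57 values in genes that rose: Reg3b -0.65 (nearest other array 1.79), Reg3g -1.03 (1.21), Socs1 0.45 (1.42), Mmp7 -0.70 (0.45), Gbp4 0.27 (1.23), Gbp5 0.34 (1.56), Retnlb -1.93 (-0.60), Clca4a -1.29 (0.48), Clca4b -1.74 (0.20) and Cxcl5 0.48 (3.72). It did so too in genes that fell, with Tmem35a -0.75 (-1.62), Ckb 0.19 (-0.10), Nos1 0.011 (-0.77), Uchl1 1.21 (0.01), Ppara -0.31 (-1.24) and Abcg2 -1.06 (-1.78), and stood apart in Gstm3 at -1.24 (-1.88). Without this array the tissue difference was called for 603 probes, 336 above 0 and 267 below 0. The array also had the lowest share of probes well above background in intact colon, 48.8%, and a negative control median of 139. Replicate 2 of the C57 intact colon, on the same slide, had 49.4% and 134. Whether the array or the mouse stood apart was not tested.

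Fewer sets pointed to other arrays. In the C57 intact colon, replicate 6 stood apart in Ckb at -0.094, H2-Ab1 at -0.29 and Chmp4b at -2.83, and replicate 1 in Mmp3 at -0.35. In the C57 epithelium, replicate 5 stood apart in Actg2 at -0.45, Mmp7 at -2.50 and Ltf at -1.24, and replicate 1 in Cyp2c55 at 2.89 and Nr1i2 at 0.36. In the Il10-/- epithelium, replicate 5 stood apart in Nos1 at -0.57 and Chmp4b at 0.92, and replicate 6 in Il10 at 0.43 and Clca4b at 1.096.

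The interaction contrast of limma called a tissue difference (log2 units) for 53 of the genes chosen for description. For Il10 at -1.21 and Abcb1a at 1.496 no epithelial change was measurable, so these 2 do not show that the tissues differed. In Ciita, Gbp4, Gbp5, Ltf, Mmp7 and Tnf the C57 epithelium was well above background on no array, and the difference may be smaller than measured. Above 0 were Reg3b 3.74, Tmem35a 3.21, Duox2 2.78, Reg3g 2.44, S100b 2.30, Sult4a1 2.22, Ckb 2.18, Wfdc18 1.95, Slc27a1 1.90, Lrmda 1.90, Nos1 1.58, Sparc 1.21, Socs1 1.18, Ifit3 1.02, Actg2 0.86, Thy1 0.83 and Sox10 0.70. Below 0 among immune genes were Zap70 -0.78, Tapbpl -0.80, Il21r -0.92, Adam8 -0.94, C1qb -0.98, Il10ra -1.03, Ciita -1.14, Cd22 -1.23, Gbp5 -1.48, Pigr -1.49, H2-Ab1 -1.55, Ltf -1.59, H2-DMb2 -1.81, H2-DMa -1.94, Tnf -1.95 and Gbp4 -2.05. Below 0 among epithelial and metabolic genes were Cyp2j6 -0.80, Nr1i2 -0.83, Bdh1 -0.93, Ehhadh -1.12, Slc20a1 -1.17, Gstm3 -1.19, Cyp3a13 -1.19, Cldn4 -1.26, Dsp -1.34, Mmp7 -1.40, Abcg2 -1.70, Chmp4b -1.94, Clca4a -2.005, St3gal5 -2.22, Muc16 -2.40, Cyp4b1 -2.60, Clca4b -2.99 and Aqp8 -3.09.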

How the results depend on the processing

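Epithelial signal over background and 5 to 6 arrays per group limit these results. The 463 probes (257 above 0, 206 below 0) became 278 (149 and 129) with the image software's processed signals, 228 (133 and 95, with 5 marker genes in place of 10) at more than 2-fold, 1252 (756 and 496, with 67 list and 23 marker genes in place of 31 and 10) with array weights, and 810 (426 and 384, with 50 list genes, 6 probes called in opposite directions and 940 falls in epithelium) with the slide as a block. Normexp background correction left 132 below 0. With no detection filter, 1507 of 41174 probes were called (803 and 704). With detection in all 4 groups, 137 lay below 0 and 20 list genes were called. Of 2 filters chosen after seeing the data, signal at least 2 times the negative controls kept 8114 probes with 178 calls (100 and 78, 12 list genes, 4 marker genes, 1 opposite), and detection on all 23 arrays kept 8945 with 210 calls (126 and 84, 13, 4 and 1). The cause of these shifts was not tested, apart from the smaller number of probes under stricter filters.

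Leaving out each array in turn gave 325 to 658 calls (174 to 363 above 0, 151 to 295 below 0), with 24 to 42 list genes, 7 to 14 marker genes and 2 to 5 probes in opposite directions. The lowest and highest counts of probes came without replicate 5 of the Il10-/- intact colon and without replicate 1 of the C57 epithelium. Epithelial rises ranged from 503 to 653 and falls from 454 to 659, and intact colon rises from 1017 to 1163 and falls from 1089 to 1432. Correlations of same-numbered deviations ran from -0.27 to 0.14 and 2 of 11 were highest with their own number. As the tissues were prepared in different ways, this cannot show whether the numbers mark the same mice. With the replicate block 336 probes were called. Of the 51 called genes, 13 lost their call: Reg3b (adjusted p = 0.054), Wfdc18, Socs1, Thy1, Bdh1, C1qb, Slc20a1, Mmp7, H2-Ab1, Adam8, Cyp2j6, Ifit3 and Nr1i2. Retnlb gained a call.

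Of 51 called genes measurable in both tissues, 18 kept their call in all 36 settings and 33 lost it in at least 1. Of 2482 gene and setting pairs, 2225 kept direction and call, 229 lost the call, 23 gained it and 5 reversed: with processed signals Ppara -0.92, Mmp3 0.92 and Ciita 0.49, and for Canx 0.027 with normexp and 0.018 without replicate 4 of the Il10-/- epithelium, within a range of -0.12 to 0.018 on leaving out 1 array.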
